A study of Mus musculus with 8 samples.

Results

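The genes described here are 10 ligands and receptors of the tumor necrosis factor (TNF) superfamily, without TNF itself and its own receptors. They were taken from the count table by gene symbol through their Ensembl IDs, and all 10 were found, once each, among 55414 gene IDs. The receptors are Fas, Tnfrsf10b and Tnfrsf21, which carry a death domain, and Ltbr, Cd40, Tnfrsf12a and Tnfrsf14. The ligands are Tnfsf10, Tnfsf15 and Ltb. RNA was sequenced from Paneth cells, the antimicrobial secretory cells of the small intestinal crypts, sorted from wild-type mice (C57BL/6J in the study's methods). Very few contaminating cells are reported by the study for its sorts in general, though not for these libraries by name. Mice had received phosphate-buffered saline (PBS, 4 libraries) or TNF (4 libraries) and were sampled 3 hours later, to find how TNF changes Paneth cell transcripts. TNF was given to the whole animal and not to isolated cells. The sources used here give neither its dose nor the age of the mice, and the labels do not give their sex (the study's methods say of its datasets in general that they include males and females). The study's methods describe its sorted samples in general as taken from individual mice, but the labels tie none of these libraries to an animal, so the p-values measure the spread between libraries.

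Ligands of the TNF superfamily are mostly trimers anchored in the membrane, and they act by clustering receptors on a neighbouring cell. Receptors with a death domain can assemble Fadd and caspase-8 and start apoptosis, whereas receptors without one recruit TRAF adaptors and feed the canonical and noncanonical NF-kB pathways. In the intestine the family takes part in epithelial survival, in the traffic between epithelium and lymphoid cells and in inflammation, with human TNFSF15 known as a susceptibility locus for inflammatory bowel disease.

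The libraries held between 23824717 and 32576077 counts, and between 16712 and 19135 genes were detected in each. TNF replicate 4 stood apart. Its TMM scaling factor was 0.448 against 0.995 to 1.36 in the other 7 libraries, and alpha-defensin genes and Lyz1 took 71.8% of its counts against 48.2% to 55.3%. No libraries of a group were duplicates. All 7 Paneth cell markers examined (Lyz1, Mmp7, Defa24, Defa30, Itln1, Ang4 and Pla2g2a) were tested, and 1 of them, Pla2g2a, was higher in TNF. The summed level of these markers was between 311085 and 459336 normalized CPM in PBS and between 388281 and 452815 in TNF replicates 1 to 3. It was 1209290 in TNF replicate 4. Normalized CPM are counts scaled to the TMM-adjusted library size, in the usual CPM unit. Among markers of other cells, 1 of 5 goblet cell genes rose (Muc2) and 2 fell (Fcgbp and Clca1), 1 of 5 enterocyte genes fell (Apoa4), and none of 3 tuft cell genes was called. Clca1 was high in PBS replicate 1 alone, and its log2 fold change of -2.55 was -0.60 without that library (edgeR adjusted p = 0.0286), while without TNF replicate 1, 2 or 3 it was not called (edgeR adjusted p of 0.0551 to 0.0651). The log2 fold change of Apoa4 was -3.94, and -5.10 without TNF replicate 1. Apoa4 passed the filter on low counts only through its PBS libraries, so its difference was built into its being tested. TNF replicate 4 had the highest TNF sum of all 3 lists, at 22707 normalized CPM for goblet (10934 to 11638 in the other TNF libraries), 54.6 for enterocyte (12.9 to 17.4) and 52.9 for tuft markers (7.58 to 14.7).

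Most of the 10 genes were higher after TNF. By edgeR's quasi-likelihood test, with p-values adjusted over the 13368 genes tested and a call at an adjusted p under 0.05, 7 of the 9 genes that could be tested were called higher (Fas, Tnfrsf10b, Tnfrsf21, Ltbr, Cd40, Tnfrsf12a and Tnfrsf14), 1 was called lower (Tnfsf10) and Tnfsf15 was not called. Every receptor was thus called higher, and no ligand was. Ltb had too few counts to be tested. Of all genes tested, 43.0% were called, 23.3% higher and 19.6% lower. The median log2 fold change of the 9 genes was 0.79, beside 0.03 over all genes, and it is the same with Cd40 placed at its lower bound. In normalized CPM, the groups did not overlap in 8 of the 9 tested genes and in Ltb. For some genes this rests on the scaling of TNF replicate 4, which held 25985971 counts in all (23824717 to 32576077 in PBS). Its raw counts were 717 for Ltbr (1346 to 2336 in PBS) and 32 for Tnfrsf10b (33 to 68). For Tnfrsf14 they were 69 (62 to 149), for Tnfrsf21 623 (420 to 861) and for Ltb 3 (0 to 9). Of all tested genes, 42.1% showed no overlap. Cd40 passed the filter on low counts only through its TNF libraries, so its difference was built into its being tested. In bulk RNA of sorted cells, fewer cells with a transcript and less of it per cell cannot be told apart.

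**Figure D1:**
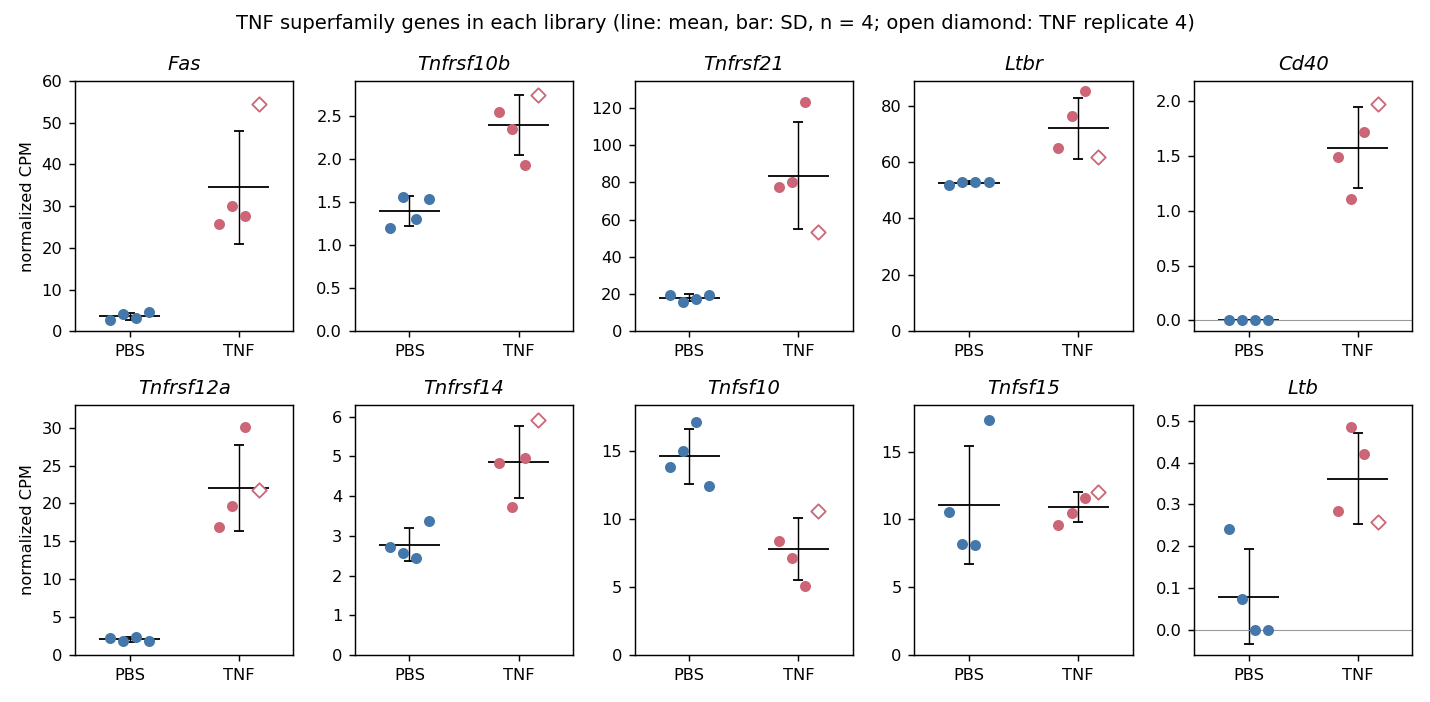
Normalized CPM (vertical axes, linear, each with its own range) of the 10 genes in the 4 PBS and 4 TNF libraries. Points are libraries, the line is the mean, the bar the SD, and the open diamond TNF replicate 4. After this scaling, all genes but Tnfsf15 show no overlap between the groups, and Tnfsf10 alone lies lower in TNF.

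Stretches of the promoters of Fas, Tnfrsf12a and Ltb are printed here. They were chosen because Fas and Ltb held all the AP-1, GAS and kB matches among these genes and Tnfrsf12a the most matches. Each was also higher, in normalized CPM, in all 4 TNF libraries than in any PBS library. For Ltb, too low to be tested, this was narrow, at 0.258 in TNF replicate 4 (3 counts) against 0.241 in PBS replicate 1 (9 counts). Promoters are those of RefSeq on GRCm38.p6, 250 bases before to 50 after the gene start, and 8 of the 10 genes had one. None was given for Tnfrsf10b and Cd40. Both strands were searched for 5 motifs, namely the kB consensus, AP-1 (TGANTCA), GAS (TTCNNNGAA), the GC box (GGGCGG) and the TATA box (TATAAA). The capitals mark the match, and the name gives its position from the gene start. The kB match reads on the strand opposite to Ltb:
Fas, AP-1 at -211, chr19:34290428-34290474, plus strand: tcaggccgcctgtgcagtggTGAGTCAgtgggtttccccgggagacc
Fas, GAS at -93, chr19:34290546-34290594, plus strand: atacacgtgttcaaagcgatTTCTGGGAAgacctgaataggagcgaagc
Ltb, GAS at -172, chr17:35194315-35194363, plus strand: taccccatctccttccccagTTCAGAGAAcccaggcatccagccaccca
Ltb, kB consensus at -87, chr17:35194400-35194449, plus strand: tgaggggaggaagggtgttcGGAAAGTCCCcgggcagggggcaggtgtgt
Tnfrsf12a, GC box at -87, chr17:23677511-23677556, minus strand: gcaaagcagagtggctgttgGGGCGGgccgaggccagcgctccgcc

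The Ltb stretch held the only kB match among the 8 promoters, and 8.46% of all 32851 promoters held one. The Fas stretch held the only AP-1 match, found in 7.81% of all promoters. GAS matches stood in Fas and Ltb and in 8.3% of all promoters. GC boxes were the commonest match, with 5 in Tnfrsf12a, 2 each in Fas and Ltbr and 1 in Tnfrsf21, and 35.7% of all promoters held at least 1. The remaining promoters, of Tnfsf10, Tnfsf15 and Tnfrsf14, held no match to any of the 5 motifs, and no TATA box match was found in the 8 windows (13.6% of all promoters). The promoters also differed in CpG dinucleotides. Ltbr had 23, Tnfrsf12a 20, Tnfrsf21 17 and Fas 14 in 300 bases, Ltb had 7, the median of all promoters, and Tnfsf10, Tnfsf15 and Tnfrsf14 had 6, 3 and 2. These matches and counts are descriptions of the 300-base windows, of which only stretches are printed. They say nothing of whether a factor binds there, and a missing match says only that these letters do not occur in the window.

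Fas (ENSMUSG00000024778, GRCm39 chr19:34268001-34305173, plus strand) encodes the receptor for Fas ligand and is the classical death receptor of the superfamily. It was measured at 2.68, 4.09, 3.15 and 4.55 normalized CPM in PBS replicates 1 to 4. In TNF replicates 1 to 4 it was at 25.8, 30.0, 27.6 and 54.6. Every TNF library was thus far above every PBS library, and TNF replicate 4 was well above its group after scaling. Before scaling it had the fewest Fas counts of the group, 635 against 727, 867 and 787 in TNF replicates 1 to 3. The mean rose from 3.62 ± 0.854 to 34.5 ± 13.5 (SD, n = 4). The log2 fold change was 3.24 (SE 0.27, 95% interval 2.64 to 3.84, edgeR adjusted p = 7.2e-06), a 9.44-fold rise, and 2.95 without TNF replicate 4.

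Tnfrsf21 (ENSMUSG00000023915, chr17:43327349-43400081, plus strand), also called death receptor 6, had the highest level per exon length of these death domain receptors in PBS. It stood at 19.7, 15.6, 17.5 and 19.5 normalized CPM in PBS and at 77.7, 80.1, 123 and 53.5 in TNF. The groups lay apart, and TNF replicate 4, highest for Fas, was the lowest of the TNF libraries for Tnfrsf21. Its log2 fold change was 2.21 (SE 0.22, 95% interval 1.72 to 2.70, edgeR adjusted p = 2.34e-05), from a mean of 18.1 ± 1.92 to 83.6 ± 28.9 (SD, n = 4).

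Tnfrsf10b (ENSMUSG00000022074, chr14:70004916-70021860, plus strand) is the death receptor for Tnfsf10 (TRAIL) in the mouse. It was scarce, at 1.21, 1.56, 1.30 and 1.54 normalized CPM in PBS and 2.56, 2.35, 1.93 and 2.75 in TNF. All 4 TNF values were higher than all PBS values. The log2 fold change was 0.76 (SE 0.20, 95% interval 0.31 to 1.21, edgeR adjusted p = 0.0116), and this interval lay wholly below those of Fas and Tnfrsf21. With library size alone as the scaling it was 0.35 and not called (adjusted p = 0.471, where the adjusted p ranged from 0.00859 to 0.471 over 16 alternatives). In a further run, with library size alone and TNF replicate 4 left out, it was 0.53 and not called (edgeR adjusted p = 0.0884).

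Tnfrsf12a (ENSMUSG00000023905, chr17:23894416-23896468, minus strand), or Fn14, is the small receptor for Tnfsf12 (TWEAK) and is known to be induced in injured epithelia. It was at 2.23, 1.79, 2.33 and 1.81 normalized CPM in PBS. In TNF it was at 16.9, 19.6, 30.1 and 21.7. The PBS libraries lay close together, and the lowest TNF library was several times higher than any of them. The log2 fold change of 3.44 (SE 0.20, 95% interval 2.99 to 3.89, edgeR adjusted p = 6.7e-07) was a 10.8-fold rise, from 2.04 ± 0.279 to 22.1 ± 5.68 (SD, n = 4). All 1965 exon bases of Tnfrsf12a are also exon of Hcfc1r1 on the other strand, and the sources used here do not state the strand setting of the counting, although the library kit is a stranded one. Hcfc1r1 went the other way, from 12.1 ± 1.59 to 7.96 ± 0.662 normalized CPM (log2 fold change -0.60, SE 0.13, edgeR adjusted p = 0.00415).

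Cd40 (ENSMUSG00000017652, chr2:164897544-164914868, plus strand), the costimulatory receptor of B cells and antigen-presenting cells, was not found at all in PBS. It had 0 counts in each of the 4 PBS libraries, which allows up to 0.0679 to 0.118 normalized CPM per library at a limit of 3 counts. In TNF it had 42, 32, 49 and 23 counts, or 1.49, 1.11, 1.72 and 1.98 normalized CPM. It was thus seen in every TNF library and in no PBS library. Against the mean limit of 3 counts per library in PBS, the TNF mean of 1.57 ± 0.369 (SD, n = 4) was at least 16.6-fold higher (edgeR adjusted p = 3.24e-05). Limits of this kind cover counting error only.

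Markers of B cells moved in the same direction at a similarly low level. Of 3 B cell markers, Cd79b and Ms4a1 were called higher, at log2 fold changes of 3.31 (SE 0.59) and 2.94 (SE 0.41). Both passed the filter through the TNF libraries. The defining marker Cd79a had 0 counts in all 8 libraries. The summed level of the list was 0.136 to 0.215 normalized CPM in PBS and 0.852 to 2.15 in TNF. Of 8 myeloid and leukocyte markers 3 were tested, Cd52 was called higher and none lower. Csf1r, at a mean of 2.10 normalized CPM in PBS and 2.99 in TNF, was at 0.51 on the log2 scale and not called (edgeR adjusted p = 0.0721). Lyz2 was at 1.37 and not called (edgeR adjusted p = 0.0805). The leukocyte marker Ptprc, too low to test, had 10, 3, 10 and 5 counts in PBS and 1, 0, 1 and 9 in TNF, and Itgam had 42 in PBS and 27 in TNF. Itgax and Adgre1 had 0 counts in all libraries, and the sum was 10.1 to 14.7 in PBS, 14.0 to 16.8 in TNF replicates 1 to 3 and 71.4 in TNF replicate 4, where Lyz2 alone was at 64.4. Of 6 T cell markers, 5 had 0 counts in all libraries and the sum reached at most 0.172. Of 6 stromal markers, Vim, which also passed through the TNF libraries, was called higher and the sum went from between 0.223 and 0.453 to between 1.23 and 1.77. The part of such cells in the Cd40 and Ltb values was not tested.

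Ltbr (ENSMUSG00000030339, chr6:125283534-125290886, minus strand), the lymphotoxin beta receptor that drives lymphoid organ formation and noncanonical NF-kB signalling, had the highest level per exon length of the 10 genes and the smallest called change. It was at 51.8, 52.8, 53.1 and 52.9 normalized CPM in PBS and at 64.9, 76.3, 85.2 and 61.6 in TNF. The PBS values were nearly equal, and each TNF value lay above them. The mean went from 52.6 ± 0.577 to 72.0 ± 10.8 (SD, n = 4), so that its log2 fold change was 0.45 (SE 0.12, 95% interval 0.18 to 0.72, edgeR adjusted p = 0.0119). This call was held by 11 of 16 alternatives. In a further run, with library size alone and TNF replicate 4 left out, the call was lost (0.35, edgeR adjusted p = 0.0545). It was lost without PBS replicate 1 (0.42, adjusted p = 0.0789), without PBS replicate 4 (0.42, adjusted p = 0.0506), without TNF replicate 2 (0.39, adjusted p = 0.0815), with no filter on low counts (0.42, adjusted p = 0.0655) and with library size alone (0.10, adjusted p = 0.857), in a range from 0.00108 to 0.857.

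Tnfrsf14 (ENSMUSG00000042333, chr4:155005126-155013020, minus strand), the herpesvirus entry mediator that binds Tnfsf14 and lymphotoxin alpha, was at 2.71, 2.57, 2.44 and 3.37 normalized CPM in PBS and 4.83, 3.74, 4.95 and 5.93 in TNF. The lowest TNF library was only a little above the highest PBS library. The log2 fold change was 0.79 (SE 0.19, 95% interval 0.38 to 1.20, edgeR adjusted p = 0.00603). It was 0.35 and not called with library size alone (adjusted p = 0.438, in a range from 0.00114 to 0.438 over 16 alternatives). In a further run, with library size alone and TNF replicate 4 left out, it was 0.51 and not called (edgeR adjusted p = 0.102).

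Tnfsf10 (ENSMUSG00000039304, chr3:27371033-27396576, plus strand), the death ligand TRAIL, was the only one of the 10 genes to fall. It was at 13.9, 14.99, 17.2 and 12.4 normalized CPM in PBS. In TNF it was at 8.42, 7.10, 5.09 and 10.6. The highest TNF library, replicate 4, stayed below the lowest PBS library. The mean went from 14.6 ± 1.99 to 7.79 ± 2.30 (SD, n = 4), 1.90-fold lower, with a log2 fold change of -0.92 (SE 0.20, 95% interval -1.37 to -0.47, edgeR adjusted p = 0.00403). The call was kept in 16 of 16 alternatives, at -1.36 to -0.76. Stem cell markers also fell, with 3 of 4 called lower (Lgr5 at -1.21, Ascl2 at -2.13 and Smoc2 at -0.56 on the log2 scale). The sum of the list was 1399 to 2305 normalized CPM in PBS and 1298 to 1831 in TNF. Most of that sum was Olfm4, which was not called, at a mean of 1744 in PBS and 1485 in TNF. The part of such cells in the fall of Tnfsf10 was not tested.

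Tnfsf15 (ENSMUSG00000050395, chr4:63642840-63663442, minus strand), or TL1A, the ligand of Tnfrsf25, was at 10.6, 8.15, 8.12 and 17.3 normalized CPM in PBS and 9.59, 10.5, 11.6 and 12.0 in TNF. The groups overlapped, and PBS replicate 4 was higher than every other library. The log2 fold change was -0.03 (SE 0.23, edgeR adjusted p = 0.933), with a 95% interval from -0.54 to 0.48 that leaves room for a modest change either way. Without PBS replicate 4 it was 0.24 and not called.

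Ltb (ENSMUSG00000024399, chr17:35413382-35415296, plus strand), lymphotoxin beta, holds lymphotoxin alpha at the cell surface as the ligand of Ltbr. It had 9, 2, 0 and 0 counts in PBS and 8, 14, 12 and 3 in TNF. In normalized CPM this was 0.241, 0.0744, 0 and 0 against 0.284, 0.485, 0.421 and 0.258, so that the groups did not overlap but nearly touched. The summed counts of 11 and 37 gave a ratio of 4.63 after scaling (counting interval 2.31 to 10.1). Of the 11 PBS counts 9 were from PBS replicate 1, and without that library the ratio was 18.4 (counting interval 4.74 to 157). With no filter on low counts the log2 fold change was 2.09 (SE 0.78, edgeR adjusted p = 0.0477), while DESeq2 gave an adjusted p of 0.0575. Ltb lies 3060 bases from Tnf and 6844 bases from Lta on chromosome 17. Tnf, the inflammatory cytokine itself, rose from 0.320 ± 0.169 to 19.0 ± 3.13 normalized CPM (SD, n = 4; log2 fold change 5.80, SE 0.29, edgeR adjusted p = 3.18e-07). In PBS, 2 libraries had enough counts of Tnf for the filter on low counts, so Tnf was tested through its TNF libraries. Lta had 7 counts in PBS and 20 in TNF.

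**Figure D2:**
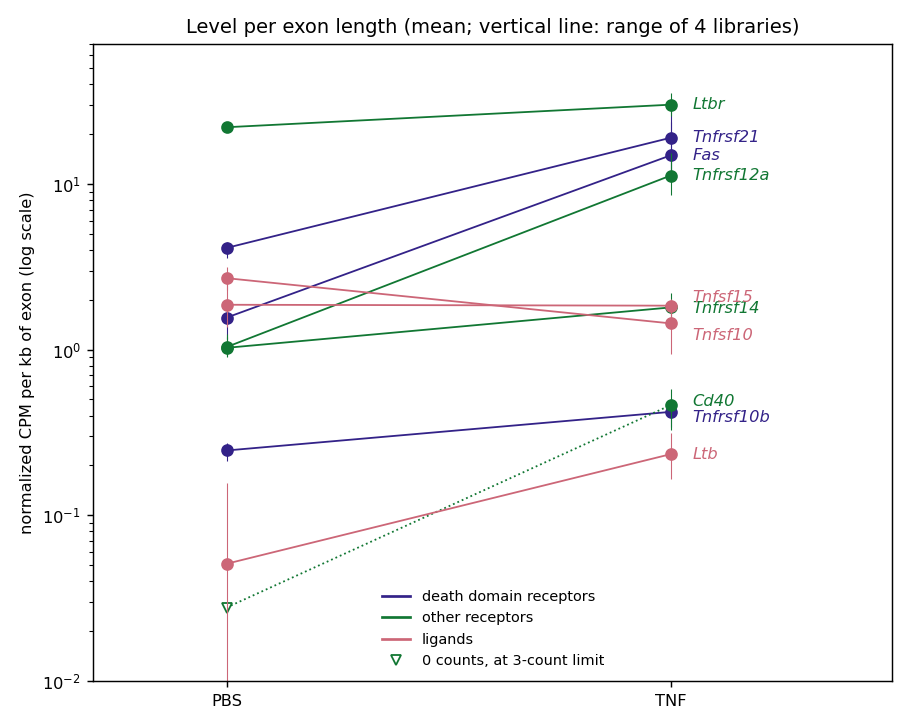
Mean level in normalized CPM per kb of exon (vertical axis, log scale) of each gene in PBS and TNF, coloured by role. Vertical lines are ranges of 4 libraries (that of Ltb in PBS reaches 0, off the axis), and the open triangle puts Cd40 in PBS at its 3-count limit; Fas, Tnfrsf21 and Tnfrsf12a move close to Ltbr after TNF.

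Levels of the genes were ranked per kb of exon, since longer transcripts give more counts. In PBS, Ltbr led at 22.0 normalized CPM per kb. It was followed by Tnfrsf21 at 4.11, the ligands Tnfsf10 at 2.70 and Tnfsf15 at 1.87, Fas at 1.56, Tnfrsf12a at 1.04, Tnfrsf14 at 1.03, Tnfrsf10b at 0.246, Ltb at 0.0510 and Cd40 at 0. The ranges over libraries overlapped between each neighbouring pair from Tnfsf10 to Tnfrsf14 and between Ltb and Cd40, so those neighbours were not separated, while Ltbr, Tnfrsf21 and Tnfrsf10b each stood clear of their neighbours. In TNF, the level per kb was 30.1 for Ltbr, 19.0 for Tnfrsf21, 14.9 for Fas and 11.2 for Tnfrsf12a, and neighbours among these overlapped in range. A gap followed, to Tnfsf15 at 1.84, Tnfrsf14 at 1.80 and Tnfsf10 at 1.44 normalized CPM per kb, which were not separated either. Cd40 at 0.462 and Tnfrsf10b at 0.421 overlapped, and Ltb at 0.234 was the lowest. With the length of the longest coding transcript in place of all exons, Fas passed Tnfsf15 in PBS and Tnfrsf21 in TNF, and Tnfrsf14 passed Tnfsf15 and Tnfrsf10b passed Cd40 in TNF.

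**Figure D3:**
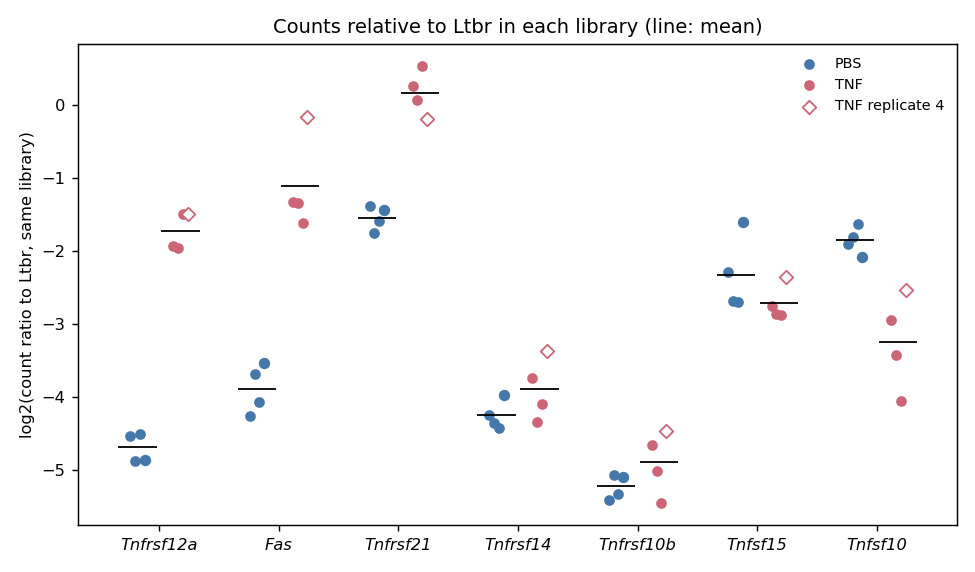
Log2 ratio of the counts of 7 genes to those of Ltbr in the same library (vertical axis), for PBS and TNF libraries, with the mean as a line and TNF replicate 4 as an open diamond. Tnfrsf12a, Fas, Tnfrsf21 and Tnfsf10 show no overlap between the groups; Tnfrsf14, Tnfrsf10b and Tnfsf15 do.

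The ratio of 2 genes within a library does not depend on the scaling factor of that library. Each of the 7 genes with enough counts was therefore set against Ltbr, a comparison chosen after the values were seen. The difference between the groups in the log2 ratio was 2.96 for Tnfrsf12a, 2.77 for Fas, 1.71 for Tnfrsf21 and -1.38 for Tnfsf10. Each of these had no overlap and an exact permutation p of 0.0286 (two-sided, n = 4 and 4), the smallest that 70 assignments allow, or 0.05 after adjustment over the 7 ratios. Tnfrsf14 at 0.36 (exact permutation p = 0.2), Tnfrsf10b at 0.33 (exact permutation p = 0.229) and Tnfsf15 at -0.39 (exact permutation p = 0.171) overlapped between the groups, each with an adjusted p of 0.229. Ratios of this kind show unequal change and not which of the 2 genes changed. Without TNF replicate 4 the differences were 2.89 for Tnfrsf12a, 2.45 for Fas, 1.83 for Tnfrsf21, -1.62 for Tnfsf10, 0.19 for Tnfrsf14, 0.18 for Tnfrsf10b and -0.51 for Tnfsf15.

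With library size alone in place of TMM scaling, the median over all tested genes moved from 0.03 to -0.38 on the log2 scale, and the share of calls that were higher went from 54.3% to 23.8%. Of the 10 genes, 4 were then called higher (Fas, Cd40, Tnfrsf12a and Tnfrsf21), and Tnfsf10 was called lower. Relative to that median, Tnfrsf10b was at 0.72, Tnfrsf14 at 0.73 and Ltbr at 0.47, against 0.73, 0.76 and 0.43 with TMM scaling. The larger changes relative to the median were 3.43 for Tnfrsf12a, 3.08 for Fas, 2.27 for Tnfrsf21 and -0.99 for Tnfsf10.

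**Figure D4:**
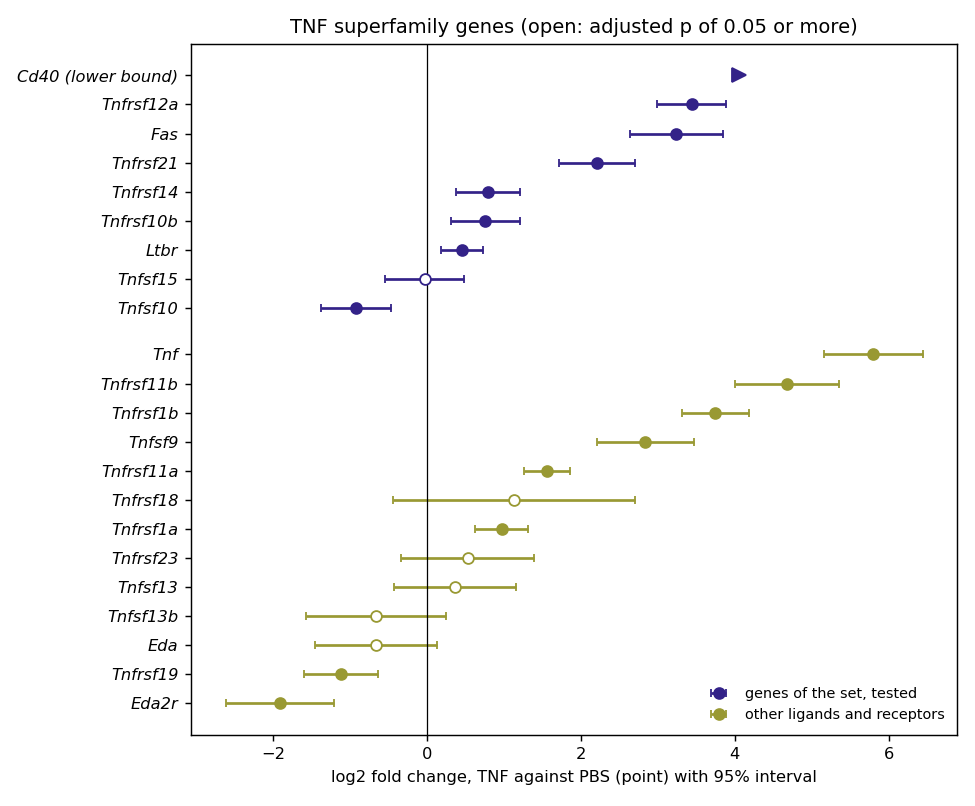
Log2 fold change of TNF against PBS (horizontal axis) with its 95% interval for the genes described here and for 13 other superfamily genes tested. Filled points had an adjusted p under 0.05; Cd40 is drawn as a triangle at its lower bound, with no interval. The largest rises outside the set are those of Tnf at 5.80 and Tnfrsf11b at 4.67.

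The binding partners of the 10 genes were mostly scarce in these cells. Fasl, Cd40lg and Tnfsf14, the ligands of Fas, of Cd40 and of Ltbr and Tnfrsf14, had 0 counts in all 8 libraries, which allows up to 0.0679 to 0.258 normalized CPM per library. Tnfsf12, the ligand of Tnfrsf12a, had 32 summed counts in PBS and 18 in TNF, a ratio of 0.774 after scaling (counting interval 0.409 to 1.42), and 0.487 without TNF replicate 3. Tnfrsf25, the receptor of Tnfsf15, had 3, 5, 8 and 26 counts in PBS and 0, 2, 6 and 1 in TNF, a ratio of 0.295 for the sums of 42 and 9 (counting interval 0.126 to 0.615). Without PBS replicate 4, which held most of the PBS counts, the ratio was 0.518 (counting interval 0.202 to 1.25), and without TNF replicate 3 it was 0.139. Tnfrsf25 was not called when tested with no filter on low counts (edgeR adjusted p = 0.130). For Tnfsf10, the decoy receptor Tnfrsf22 had 30 and 37 counts (ratio 1.70, counting interval 1.02 to 2.84, and 1.43 to 2.62 with each library left out) and was not called when tested with no filter on low counts (edgeR adjusted p = 0.333). The ratio of 2.62 was without PBS replicate 4. The decoy Tnfrsf23 was at 0.53 on the log2 scale (SE 0.39, 95% interval -0.33 to 1.40, edgeR adjusted p = 0.299). Tnfrsf11b, osteoprotegerin, a soluble decoy that binds Tnfsf11 and Tnfsf10, was the exception. It was at 0.322, 0.223, 0.513 and 0.204 normalized CPM in PBS and at 5.68, 10.04, 7.02 and 8.85 in TNF, and its log2 fold change was 4.67 (SE 0.31, edgeR adjusted p = 1.29e-06). Like Tnf, it had enough counts for the filter in all 4 TNF libraries and in 2 PBS libraries, so it was tested through its TNF libraries.

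Of the 36 other ligands and receptors of the superfamily, 13 could be tested, and 6 were called higher, 2 lower and 5 not at all. Their median log2 fold change was 0.97, and 10 of the 36 had 0 counts in every library. Besides Tnf and Tnfrsf11b, the genes that rose were Tnfrsf1b (3.75), Tnfsf9 (2.84), the ligand of the lymphocyte receptor 4-1BB, Tnfrsf11a (1.56), the receptor of Tnfsf11, and Tnfrsf1a (0.97, and 0.64 and not called with library size alone). Those that fell were Eda2r, a receptor of ectodysplasin, from 6.80 ± 1.64 to 1.93 ± 1.08 normalized CPM (log2 fold change -1.91), and the orphan receptor Tnfrsf19, from 7.76 ± 1.93 to 3.58 ± 0.776 (-1.12). Tnfrsf1a lies 34679 bases and Cd27 69545 bases from Ltbr on chromosome 6, and Cd27 had 0 counts in all libraries. Tnfsf8, 86099 bases from Tnfsf15 on chromosome 4, had 1 count in all.

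**Figure D5:**
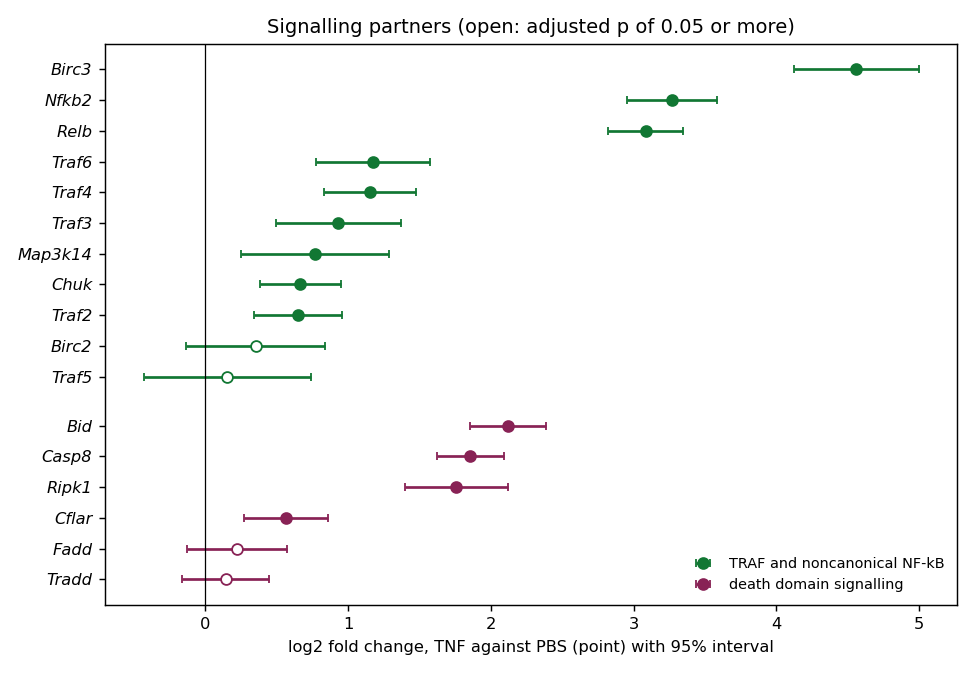
Log2 fold change of TNF against PBS (horizontal axis) with its 95% interval for signalling genes downstream of the receptors, in 2 groups. Filled points had an adjusted p under 0.05; Birc3, Nfkb2 and Relb lie furthest right, and Birc2, Traf5, Fadd and Tradd, drawn open, are the genes whose intervals include 0.

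Downstream of Ltbr, Cd40 and Tnfrsf12a lie TRAF adaptors and the noncanonical NF-kB pathway. Of 12 such genes 11 were tested, 9 were called higher and none lower, with a median log2 fold change of 0.93. With library size alone 3 of them were called higher (Birc3, Nfkb2 and Relb). Birc3, a ubiquitin ligase bound by TRAF adaptors, rose from 8.09 ± 1.92 to 191 ± 24.4 normalized CPM (SD, n = 4; log2 fold change 4.56, SE 0.20, edgeR adjusted p = 1.54e-07). Nfkb2, the precursor of p52, rose by 3.27 on the log2 scale (SE 0.14, edgeR adjusted p = 1.62e-07), and its partner Relb by 3.08 (SE 0.12, edgeR adjusted p = 9.34e-08). Traf3 was at 0.93 and Traf2 at 0.65, and Traf1 was too low to be tested. Map3k14, the kinase that starts the noncanonical pathway, was at 7.08, 3.79, 4.10 and 8.17 normalized CPM in PBS and 9.44, 9.42, 10.8 and 10.2 in TNF. Its log2 fold change was 0.77 (SE 0.23, edgeR adjusted p = 0.0214), and the call was lost without PBS replicate 2 (0.62), without PBS replicate 3 (0.64) and with library size alone (0.34). Birc2 (0.35) and Traf5 (0.15) were not called, and both were below 0 with library size alone, at -0.18 and -0.20.

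The list of death domain signalling held 5 genes of the complex that forms on death domains and Bid, a substrate of its caspase. Of these 6 genes, 4 were called higher and none lower, with a median log2 fold change of 1.16. Without Bid it was 3 of 5, with a median of 0.56. Casp8, the initiator caspase, was at 21.3, 20.6, 22.1 and 20.4 normalized CPM in PBS and 80.1, 81.7, 67.6 and 76.0 in TNF. Both groups were tight and far apart, at 1.85 on the log2 scale (SE 0.11, edgeR adjusted p = 5.39e-07). Bid, which caspase-8 cleaves, was at 2.12 (SE 0.12) and the kinase Ripk1 at 1.76 (SE 0.16). Cflar, the inhibitor of caspase-8 at these receptors, rose from 23.5 ± 2.95 to 34.8 ± 4.62 (log2 fold change 0.56, SE 0.13, edgeR adjusted p = 0.00589), but was at 0.18 and not called with library size alone. The adaptors Fadd (0.22) and Tradd (0.14) were not called, and with library size alone both were below 0, at -0.19 and -0.30.

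The genes most like the strongest call in each direction were looked up among 8491 genes with at least 5 normalized CPM on average. Over the 8 libraries, Tnfrsf12a was followed most closely by Marcksl1 (Pearson r = 0.997), Ptpn2 (r = 0.996) and Mfsd6l (r = 0.9955), whose log2 fold changes were 3.28, 1.72 and 3.35. Tnfsf10 was followed by Ascl2 (r = 0.994), a stem cell transcription factor, Lrrc14 (r = 0.992) and Timmdc1 (r = 0.981), with log2 fold changes of -2.13, -0.35 and -0.87. After removal of the group means the correlations were 0.864, 0.857 and 0.755 for Tnfrsf12a and 0.988, 0.985 and 0.933 for Tnfsf10. These values share the same 8 libraries, their scaling and the difference between the groups, and are given as a description.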

How the data were processed

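The deposited table held raw counts per Ensembl gene ID, not normalized, in 1 column per library. The submitters' processing notes name FastQC 0.12, STAR 2.7.10a, DESeq2 and the build mm39. The counter, annotation release, strand setting and treatment of reads matching several genes were not given in the sources used here. RNA was isolated with a Bio-Rad Aurum column kit, and libraries were stranded TruSeq mRNA ones.

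Names, positions and exon lengths came from GENCODE M39 (GRCm39), with 54749 IDs matched and 665 not. Genes were tested with edgeR 4.0.16 in R 4.3.3 (quasi-likelihood F test, TMM, filterByExpr, no covariate), and p-values were adjusted by Benjamini-Hochberg over all genes tested. SE and 95% intervals came from the F statistic. Log2 fold changes are TNF against PBS. The procedure was tested on simulated data. Alternatives to the test were limma-voom (limma 3.58.1), DESeq2 1.42.0, the replicate number as a block and a threshold of 0.01. Those to the scaling were library size alone, RLE, and TMM without Defa genes and Lyz1. Those to the filter were none beyond 1 count, and 1 CPM or more in 4 libraries. Each library was also left out in turn. Added after the data were seen were library size alone with TNF replicate 4 left out, count ratios of genes too low to test with each library left out, called markers of other cells with each library left out, marker sums without TNF replicate 4, and the death domain list without Bid.

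The genes and lists were chosen with earlier results of these data known. Named were all 10 genes, their binding partners and adaptors, the called genes among other superfamily members, and the 3 genes most correlated with the strongest call in each direction. Neighbouring genes, overlapping genes and markers were named for their position or as controls (1 marker is not reported here), and Traf5, Birc2, Tradd, Bid and Ripk1 after their values were seen. Molecular identifiers are not described, so limits of 3 counts and counting intervals cover counting error only.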

Additional observations from a re-analysis of the deposited data

Results flagged for a closer look

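Fas in TNF replicate 4 stood at 54.6 normalized CPM, against 25.8 to 30.0 in TNF replicates 1 to 3. The gap to its nearest neighbour was 0.854 of the group's range, more than Dixon's test allows at the 95% level for 4 samples. Of the 19 groups of 4 libraries checked this was the only one so marked, and chance alone marks about 1 in 20. The same library had the scaling factor of 0.448. Its raw Fas counts, 635, were the fewest of the group (727, 867 and 787 in TNF replicates 1 to 3), so it stands out only after scaling.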

How the results depend on the processing

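The 7 higher calls became 4 with library size alone, and 4 with library size alone and TNF replicate 4 left out. With library size alone, the TRAF and noncanonical list had 3 higher calls and all genes 3182 calls. In every other alternative run, 5 to 7 of the 10 genes were called higher and Tnfsf10 was called lower. Cd40 could not be tested with a minimum of 1 CPM in 4 libraries. Leaving out each library in turn gave 6 or 7 higher calls. The labels do not say whether replicate numbers pair the libraries. Deviations of same-numbered libraries correlated at -0.144 to 0.0663. Replicates 1 and 2 correlated best with their own number (0.0230 and 0.0663), and replicates 3 and 4 did not. With 4 libraries per group these values do not decide whether the libraries were paired. With the replicate block, 7 genes were called higher and 1 lower among 5087 calls over all genes, and no gene of the 10 changed its call.

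Genes that were not called changed sign in places. Tnfsf15 was at 0.0504 with the replicate block, at 0.0025 with limma-voom and at -0.15 to 0.24 with each library left out. Traf5 was at -0.20 with library size alone and at -0.0519 to 0.275 with each library left out. Birc2 was at -0.18 with library size alone and -0.11 when TNF replicate 4 was also left out, Tradd at -0.30 and -0.13, and Fadd at -0.19 with library size alone. Over 35 genes (9 of the 10 genes, without Ltb, 9 other superfamily members and the tested genes of both signalling lists), 559 of 593 alternative values kept direction and call, 23 lost the call and 11 changed sign. The cause of these changes was not tested. Low counts limit Ltb, Cd40 in PBS and most binding partners.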
